A study of Mus musculus with 4 samples.

Results

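The p53 target genes described here are 9 genes named by symbol: Cdkn1a, Mdm2, Ccng1, Trp53inp1, Zmat3, Sesn2, Phlda3, Bax and Eda2r. The list was chosen with earlier results of these data known. All 9 were among the 30408 gene symbols of the count tables. They were followed through 4 single-cell RNA sequencing libraries from tumours of MB49, a mouse bladder carcinoma cell line, with 1 library each of CD45-negative cells from male mice, CD45-negative cells from female mice, CD45-positive cells from male mice and CD45-positive cells from female mice. CD45 is the surface protein of leukocytes, so carcinoma cells were expected in the negative sort and immune cells in the positive sort. No group carried a drug treatment or an engineered allele in the labels, and the sources used here do not give the number of mice behind a library, their strain or their age. By its title and design the study is about the immune system and sex differences in tumour progression. The question for these genes is how their levels differ between the sexes of the host, between carcinoma cells and leukocytes, and from cell to cell.

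The transcription factor p53 is kept scarce in unstressed cells and accumulates after DNA damage, oncogene activity and other stresses, when it binds DNA and switches on a set of target genes. Some targets halt the cell cycle, some promote cell death, some adjust metabolism and growth signalling, and some feed back on p53 itself. Bladder carcinomas often carry lesions of this pathway, and the level of a target gene also depends on factors other than p53.

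Promoter stretches that match the p53 response element are shown because this element defines the group. It consists of a pair of 10-base copies of the p53 decamer motif, separated by up to 13 bases. RefSeq sequence of GRCm38.p6 around annotated start sites, from 250 bases before to 50 bases after each start, was listed for 7 of the 9 genes (Cdkn1a, Mdm2, Ccng1, Sesn2, Phlda3, Bax and Eda2r). The motif reads the same on both strands, so only 1 strand was searched. The stretches below carry the best match with 20 flanking bases on each side, written along the gene's own strand, with the decamers in capitals.
Cdkn1a, chr17:29090908-29090967, plus strand: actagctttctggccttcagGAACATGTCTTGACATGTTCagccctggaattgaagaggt
Ccng1, chr11:40755442-40755501, minus strand: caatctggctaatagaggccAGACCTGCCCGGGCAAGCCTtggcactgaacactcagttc
Bax, chr7:45467059-45467119, minus strand: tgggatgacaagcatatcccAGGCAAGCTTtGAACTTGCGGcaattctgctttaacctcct
Mdm2, chr10:117710915-117710964, minus strand: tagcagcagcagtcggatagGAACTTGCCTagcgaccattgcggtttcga
In Cdkn1a the paired decamers touched each other and departed from the motif at 1 base. They lay from -51 to -32 relative to the first of 2 listed start sites, 2822 bases before the second. In Ccng1 they also touched and departed at 1 base, from -195 to -176. Bax had a spacer of 1 base and 2 departures, from -201 to -181. Mdm2 had a single decamer with no departure, from -186 to -177. No match was found in the windows of Sesn2, Phlda3 and Eda2r or at the second start of Cdkn1a, which says only that these letters are not in these windows. A pair with intact core letters and up to 3 departures was present in 15.6% of 32851 promoter windows of the genome, and a single decamer with no departure in 8.36%, so a match is a description and not a binding site.

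The libraries held between 5152 and 6023 cell barcodes and between 37705608 and 62273035 unique molecular identifiers (UMIs, each the tag of 1 captured RNA molecule), and 19373 of 22115 barcodes passed the filters. Carcinoma-like cells made up 4840 of the 5496 cells kept from the male CD45-negative library and 3458 of the 3904 from the female one, with a median of 10973 and 11416 UMIs per cell. Of 16 carcinoma markers, 5 reached 20 CPM in male cells and 6 did in female cells, where CPM is the count of a gene per 1000000 UMIs summed over the cells. These were Krt8, Krt18, Krt19, Krt14 and Sprr1a, with Krt17 in the female cells only, while Upk1b was at 0 in the female cells and the T cell gene Cd3e was at 0 in both. Of 8 fibroblast markers 4 also reached 20 CPM (Col1a1, Col3a1, Dcn and Pdgfra), with a sum of 3949 CPM in male and 3090 CPM in female carcinoma cells. A CD45-negative cluster of 596 male and 356 female cells whose depth was far below that of its library, a shallow phagocyte cluster and a cluster with both macrophage and T cell genes were kept out of the classes. Every value below comes from 1 library per group, so no test across mice was possible, no p-value is given, and the 95% intervals cover counting error only.

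Carcinoma cells from female hosts held more RNA of the cell cycle inhibitor gene Cdkn1a and of the feedback gene Mdm2, and more of the stress gene Sesn2, than those from male hosts. Trp53inp1 was higher in the male cells, and the remaining genes differed by less than 1.5-fold. Of the 9 genes, 8 had enough UMIs to be compared (100 or more over both libraries and a higher level of 20 CPM or more). The female level exceeded the male level by 1.5-fold or more in 3 of the 8, as it did in 5.38% of all 7083 genes compared. The male level exceeded the female level by that much in none of the 8 and in 3.54% of all genes. The median log2 female:male ratio was 0.37 over the 8 genes and -0.0013 over all 7083. Most male carcinoma cells came from a cluster led by Cenpf and other mitotic genes (37.6%) and a cluster led by Serpina6 (34.5%), and most female cells from a cluster led by Akr1c18 and the hypoxia-associated genes Adm and Ero1l (47.3%) and a cluster led by Il24 and Ankrd1 (29.5%).

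Cdkn1a encodes p21, which blocks cyclin-dependent kinases and is the main p53 target in cell cycle arrest. Its level was 298.9 CPM (295 to 303) in male and 552.2 CPM (545 to 559) in female carcinoma cells. The intervals lay far apart, and the female level was 1.85-fold higher (1.81 to 1.88). At least 1 Cdkn1a UMI was found in 74.9% of male and 88.7% of female cells, and in 60.6% and 80.9% once every cell was reduced to 5000 UMIs.

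Mdm2 encodes the ubiquitin ligase that marks p53 for destruction and so closes a negative feedback loop. Its level was 228.3 CPM (224 to 232) in male and 554.4 CPM (547 to 562) in female carcinoma cells, a female:male ratio of 2.43 (2.38 to 2.48). Among the 7083 genes it ranked 52 from the top in this ratio. Sesn2 and Cdkn1a ranked 136 and 137. At 5000 UMIs per cell, 54.4% of male and 78.7% of female cells held a Mdm2 UMI, and without thinning 72.8% and 89.6% did.

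Ccng1 encodes cyclin G1, which recruits a phosphatase to Mdm2. It was at 137.8 CPM (135 to 141) in male and 181.6 CPM (178 to 186) in female carcinoma cells. The ratio of 1.32 (1.28 to 1.36) was beyond counting error and below the 1.5-fold threshold.

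Bax and Eda2r differed by less than 1.5-fold. Bax, whose product permeabilises the outer mitochondrial membrane in apoptosis, was at 117.0 CPM (114 to 120) in male and 130.2 CPM (127 to 134) in female carcinoma cells, a ratio of 1.11 (1.07 to 1.15). Eda2r, a receptor of the tumour necrosis factor receptor family on the X chromosome, was at 26.1 CPM (24.8 to 27.4) in male and 25.5 CPM (24.0 to 27.0) in female cells. Its intervals overlapped, and the female:male ratio was 0.977 (0.903 to 1.06).

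Trp53inp1 encodes a nuclear and autophagy-associated protein that assists p53 in stress responses. It was the gene of the group with the opposite direction, at 180.7 CPM (177 to 184) in male and 120.8 CPM (118 to 124) in female carcinoma cells. The male level was 1.495-fold the female one (1.45 to 1.55), just short of the threshold.

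Sesn2 encodes sestrin 2, which restrains the growth kinase complex mTORC1 and is also switched on by the transcription factor ATF4 of the integrated stress response. It was at 30.0 CPM (28.6 to 31.4) in male and 55.8 CPM (53.6 to 58.1) in female carcinoma cells, a female:male ratio of 1.86 (1.75 to 1.98). Zmat3, an RNA-binding zinc finger protein that acts on splicing, was at 22.3 CPM (21.2 to 23.6) in male and 28.3 CPM (26.7 to 29.9) in female cells, a ratio of 1.27 (1.17 to 1.37). Phlda3, which antagonises the kinase Akt at the membrane, was close to undetected. It gave 87 UMIs in all male and 67 in all female carcinoma cells, 1.45 CPM (1.16 to 1.79) and 1.58 CPM (1.23 to 2.01), and was too low to be compared. Fibroblasts, the class in which Phlda3 was highest, held 7 UMIs in 33 male cells and 14 in 68 female cells, 25.7 CPM and 22.6 CPM.

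**Figure D1:**
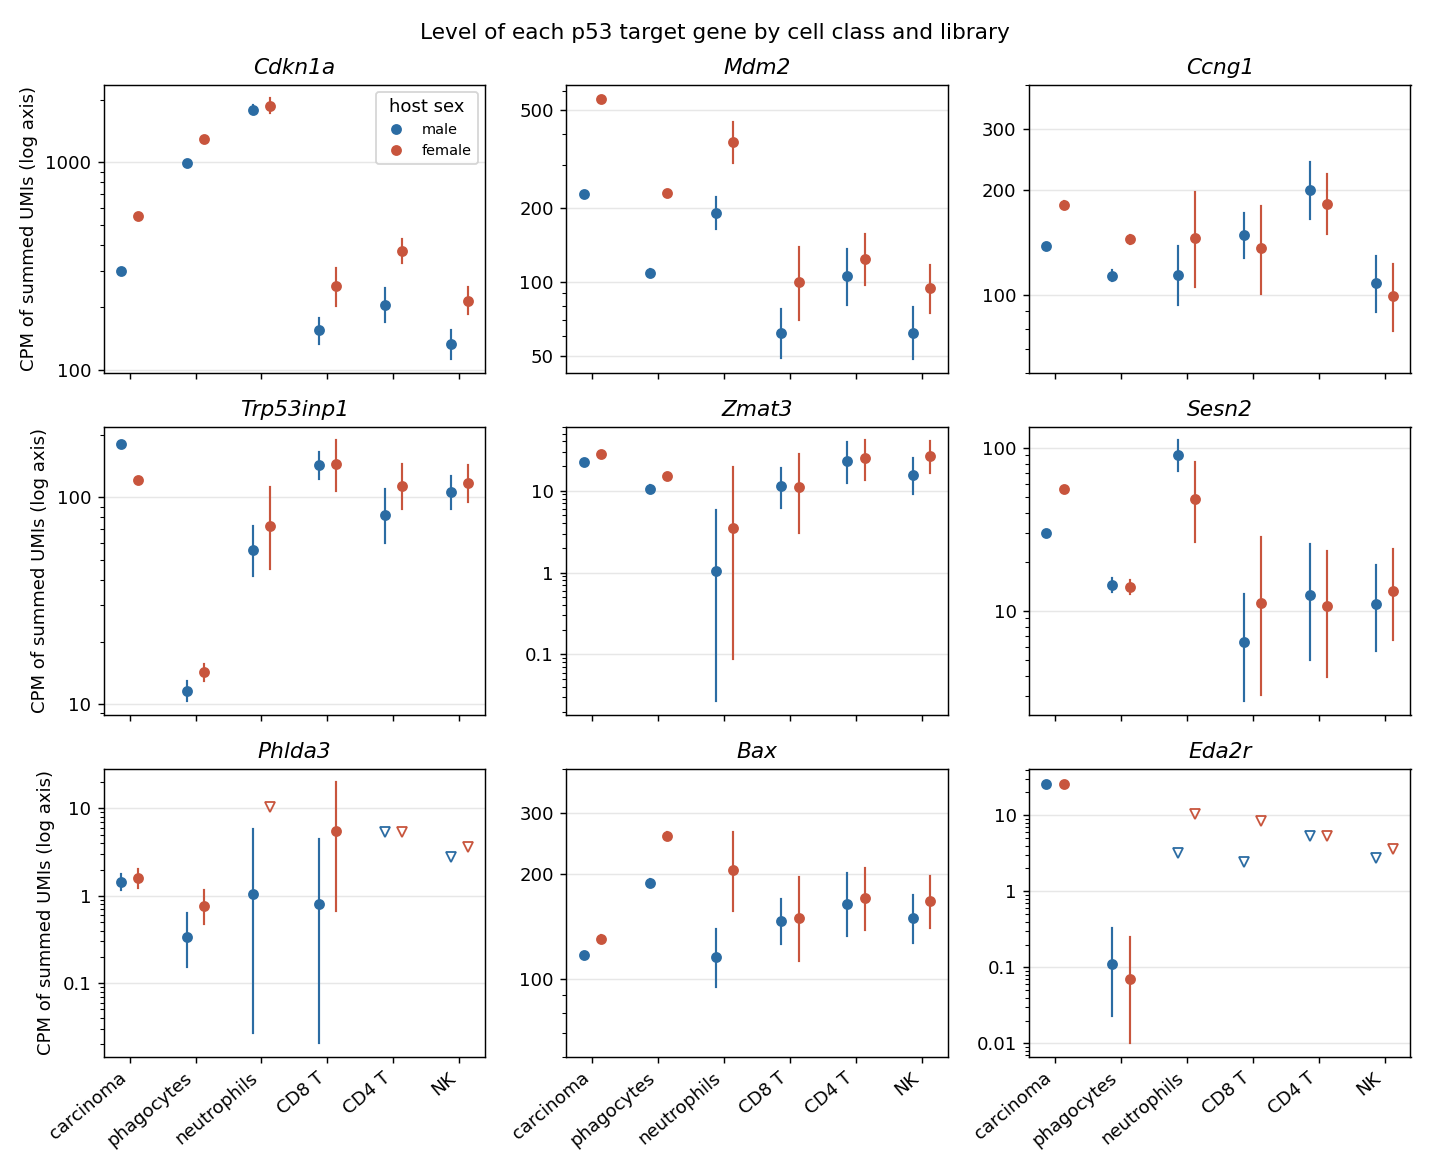
CPM of summed UMIs (log axis) of each gene in 6 cell classes, in libraries from male (blue) and female (red) hosts; bars are exact Poisson 95% intervals of counting error, and open triangles mark the level of 3 counts where no UMI was found. Mdm2 is highest in carcinoma cells of both sexes, Cdkn1a in neutrophils, and Eda2r is at 26.1 and 25.5 CPM in carcinoma cells with at most 0.112 CPM in phagocytes.

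Other properties of the carcinoma cells moved with host sex as well. Summed immediate early and dissociation genes were at 8776 CPM in male and 12252 CPM in female cells, and integrated stress response genes at 1149 and 1937 CPM. Of the latter, 8 of 12 were 1.5-fold or more above the male level in female cells, as were 5.38% of all 7083 genes. Proliferation genes were at 4415 CPM in male and 3610 CPM in female cells. The median share of mitochondrially encoded UMIs was 4.67% and 3.93%. Macrophage markers summed to 67.3 and 160 CPM, with 2 of 10 at or above 20 CPM in both libraries (Cd68 and Trem2), and the 3 C1q genes together to 2.50 and 2.37 CPM. The part of each of these in the differences of the p53 target genes was not tested.

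The female excess of Mdm2, Cdkn1a and Sesn2 was also present inside every carcinoma cluster that could be compared. The clusters had been made without the 9 genes, the other p53 targets and the sex-linked genes, and 5 had at least 100 cells in both libraries. Of the 9 genes, 7 could be compared in every one of the 5. Mdm2, Cdkn1a, Sesn2 and Ccng1 were higher in the female cells of all 5 clusters, as 23.8% of 6159 genes were, and for the first 3 every interval of the ratio lay above 1, as for 6.51% of genes. Mdm2 had ratios of 1.92 to 2.26. In the Akr1c18 cluster (630 male and 1637 female cells) Mdm2 was at 270.9 CPM in male and 612.3 CPM in female cells. In the Cenpf cluster (1822 and 381 cells) it was at 190.4 and 391.0 CPM. The cluster led by Serpina6 (1670 and 131 cells) had 272.0 and 584.8 CPM. The cluster led by Il24 (133 and 1020 cells) had 252.8 and 540.3 CPM. In the cluster led by Ifit3 and other interferon-induced genes (209 and 284 cells) it was at 289.5 and 556.7 CPM. The lowest female cluster value of Mdm2 lay above the highest male one, which held for Sesn2 too and for 4.4% of the 6159 genes. Summed immediate early and dissociation genes were also higher in the female cells of all 5 clusters. In male and female cells they were at 11110.5 and 12939 CPM (Akr1c18), 7494 and 8935 (Cenpf), and 9730 and 13294 (Serpina6). The Il24 cluster had 9676 and 12575 CPM and the Ifit3 cluster 9710 and 11591 CPM. Their part in the ratios inside the clusters was not tested.

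Cdkn1a and Sesn2 had smaller ratios than Mdm2 inside the clusters, from 1.38 to 1.799 and from 1.36 to 1.59. Ccng1 had 4 of 5 intervals above 1, and its ratios ran from 1.09 in the Il24 cluster to 1.59 in the Ifit3 cluster. Zmat3 and Bax were higher in 4 of 5, with 1 and 0 intervals above 1, and Eda2r in 3 of 5, with 0.

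Trp53inp1 turned its direction inside the clusters. Its level was 93.7 CPM in male and 121.9 CPM in female cells of the Akr1c18 cluster, 109.3 and 162.4 CPM in the Cenpf cluster, and 60.8 and 85.2 CPM in the Il24 cluster. In these 3 clusters the female cells were higher by 1.30-fold to 1.49-fold with intervals above 1. It was at 147.1 and 159.6 CPM in the Ifit3 cluster and at 357.1 and 328.9 CPM in the Serpina6 cluster, where the intervals of the ratio included 1. That last cluster, the highest for Trp53inp1 in both libraries, held 1670 of 4840 male and 131 of 3458 female cells. With equal weight to the 5 clusters, the log2 female:male ratio of Trp53inp1 was 0.29 where the sum over all carcinoma cells gave -0.58.

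**Figure D2:**
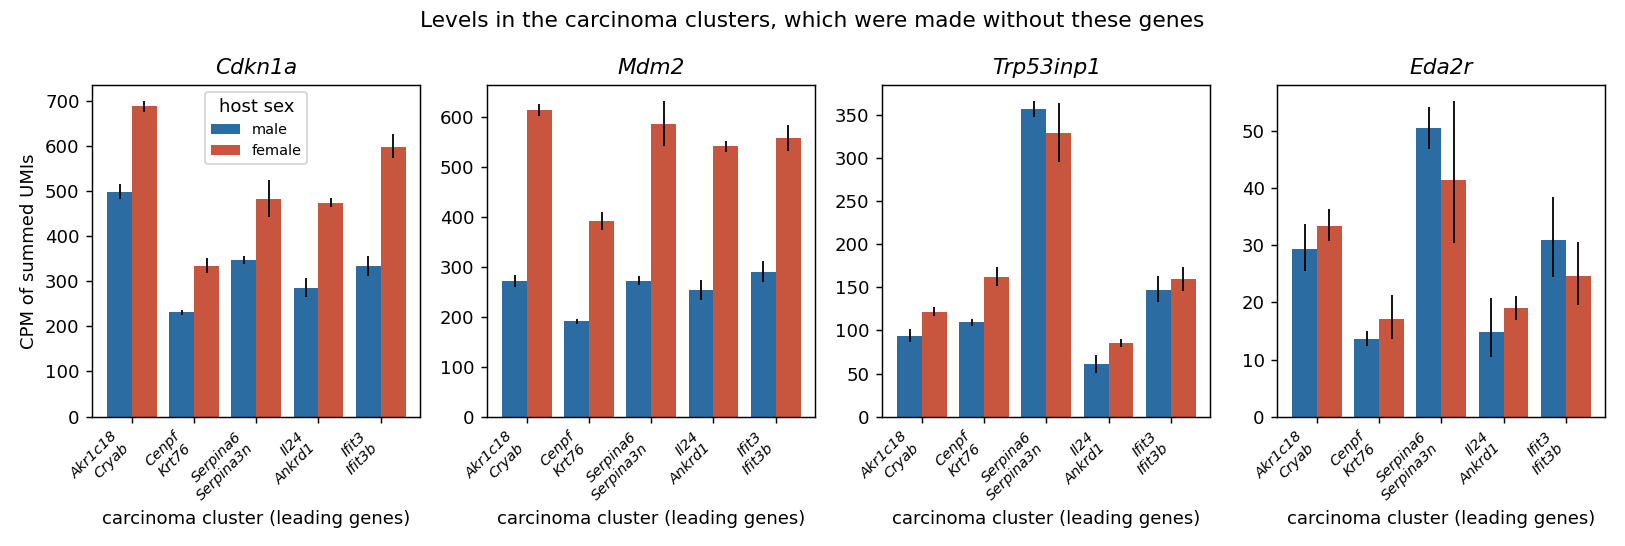
CPM of summed UMIs of Cdkn1a, Mdm2, Trp53inp1 and Eda2r in the 5 carcinoma clusters with at least 100 cells in both libraries, from male (blue) and female (red) hosts; error bars are exact Poisson 95% intervals. The female bars of Mdm2 and Cdkn1a exceed the male bars in every cluster, and Trp53inp1 is highest in the Serpina6 cluster, at 357.1 and 328.9 CPM.

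The clusters differed among themselves in some of the genes. Between the highest and the lowest of the 5 clusters, 4 of the 8 genes with enough UMIs were at least 1.5-fold apart in both libraries, where 44.2% of 7884 genes were. Trp53inp1 was 5.88-fold apart in male and 3.86-fold in female cells, and Eda2r 3.70-fold and 2.43-fold, both with the Serpina6 cluster on top. Cdkn1a was lowest in the Cenpf cluster, at 230.9 CPM in male and 334.4 CPM in female cells, and highest in the Akr1c18 cluster, at 498.3 and 687.0 CPM. Mdm2 was also lowest in the Cenpf cluster of both libraries and spanned 1.52-fold and 1.57-fold. Bax was the reverse of Trp53inp1, lowest in the Serpina6 cluster (95.9 and 114.4 CPM) and highest in the Il24 cluster (136.8 and 136.4 CPM).

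Carcinoma-like cells caught in the CD45-positive sort gave a second set of libraries for the comparison, with 96 male and 55 female cells. Their cluster mix differed between the sexes. The Il24 cluster held 6 male and 33 female cells, the Serpina6 cluster 36 and 3, and the Cenpf cluster 29 and 2. With finer clustering, 31 female and 1 male CD45-positive cells formed a carcinoma-like cluster of their own. It held 0 cells of either CD45-negative library and had 3.16 times the depth of its library. How many of the 55 female cells lay in it was not counted, so the male and female cells here may be unlike. The part of this mix in the ratios below was not tested. Mdm2 was at 305.4 CPM in male and 453.5 CPM in female cells, a ratio of 1.48 (1.30 to 1.70). Cdkn1a was at 426.5 and 611.6 CPM, a ratio of 1.43 (1.28 to 1.61). Sesn2 was at 33.0 and 53.8 CPM, a ratio of 1.63 (1.08 to 2.47). Trp53inp1 was at 246.2 and 138.1 CPM, again lower in the female cells. The other genes had intervals that included 1, with ratios below 1 for Ccng1 (0.987, 0.806 to 1.20487), Bax (0.983, 0.801 to 1.204), Zmat3 (0.915, 0.552 to 1.49) and Eda2r (0.884, 0.499 to 1.53). Ccng1, Bax and Zmat3 were higher in female cells in the CD45-negative libraries. The C1q genes of macrophages reached 453 and 1102 CPM in these cells, and the part of leukocyte RNA in them was not tested.

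Other p53 targets were followed as a list of 38 genes. In carcinoma cells 25 had enough UMIs. In 6 of these the female level was 1.5-fold or more above the male, as in 5.38% of all 7083 genes. In 1 the male level was that much higher, as in 3.54%. The median log2 female:male ratio of the 25 was 0.23, against -0.0013 over all 7083. The highest was Gdf15, a stress-induced cytokine, at 57.5 CPM in male and 144.2 CPM in female cells, 2.51-fold higher (2.41 to 2.62). Btg2, an antiproliferative gene, was at 134.8 and 273.1 CPM and 2.03-fold higher (1.97 to 2.09). Plk2, a polo-like kinase, was at 150.1 and 295.3 CPM and 1.97-fold higher (1.92 to 2.02). At the other end, the phosphatase gene Ptp4a3 was at 27.7 and 17.5 CPM, 1.58-fold higher in the male cells (1.45 to 1.72). Rap2b, a small GTPase, was at 131.5 and 91.8 CPM, and Ckap2, a mitotic spindle gene, at 82.7 and 72.3 CPM. The abundant targets Gpx1 (716.4 and 654.1 CPM) and Ddit4 (390.0 and 418.8 CPM) were close to equal.

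Of 13 genes that act on p53, 7 could be compared. None was 1.5-fold apart in either direction, against 5.38% of all genes in the female and 3.54% in the male direction, so that a count of 0 in 7 is near the background. Their median log2 ratio was 0.03. The p53 gene Trp53 itself was at 117.6 CPM (115 to 120) in male and 93.9 CPM (91.0 to 96.8) in female carcinoma cells, 1.25-fold higher in the male cells (1.205 to 1.303). Inside the 5 carcinoma clusters the male:female ratio of Trp53 was smaller, from 1.05 in the Akr1c18 cluster to 1.21 in the Ifit3 cluster. Its interval included 1 in the Akr1c18, Cenpf and Serpina6 clusters. Mdm4, the partner of Mdm2 in restraining p53, was at 43.2 and 46.7 CPM over all carcinoma cells. Its female:male ratio ran from 0.909 (0.671 to 1.21) in the Serpina6 cluster to 1.62 (1.26 to 2.12) in the Il24 cluster. Over all carcinoma cells, the damage kinases Atm (20.6 and 19.9 CPM) and Atr (17.4 and 21.2 CPM), the p53 phosphatase Ppm1d (21.1 and 19.1 CPM) and the ribosomal protein gene Rpl11 (80.6 and 87.4 CPM) differed by at most 1.21-fold in either direction. These are RNA levels, and the amount and activity of p53 protein were not measured.

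In the leukocytes the genes stood in different orders across the classes. Carcinoma cells and leukocytes came from separate sorts, so the sort and the class cannot be told apart. Only Mdm2 and Eda2r were highest in carcinoma cells in both sexes, 2 of the 8 genes that could be ranked, where 27.2% of 8578 genes were.

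Mdm2 was at 228.3 CPM in male carcinoma cells, 191.1 CPM (164 to 221) in neutrophils, 108.7 CPM (105 to 113) in mononuclear phagocytes and 105.5 CPM (80.3 to 136) in CD4 T cells, with NK cells at 62.3 CPM (48.4 to 78.9) and CD8 T cells at 62.1 CPM (49.0 to 77.6). Phagocytes and CD4 T cells could not be separated within counting error, nor could NK and CD8 T cells. The female order was carcinoma cells at 554.4 CPM, neutrophils at 372.1 CPM (305 to 450), phagocytes at 229.8 CPM (224 to 235), CD4 T cells at 124.2 CPM (96.8 to 157), CD8 T cells at 100.1 CPM (70.1 to 139) and NK cells at 94.3 CPM (74.6 to 118), the last 3 with overlapping intervals.

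Cdkn1a was highest in neutrophils, at 1794 CPM (1710 to 1881) in male and 1878 CPM (1723 to 2043) in female cells. Phagocytes followed, at 998.2 CPM and 1289 CPM, then carcinoma cells at 298.9 and 552.2 CPM. CD4 T cells had 205.7 CPM (170 to 247) and 374.5 CPM (326 to 429). CD8 T cells had 154.8 CPM (134 to 178) and 253.0 CPM (204 to 311), and NK cells 132.8 CPM (112 to 156) and 215.3 CPM (185 to 249), so that CD8 T and NK cells overlapped in both sexes. With every cell reduced to 1000 UMIs, Cdkn1a was found in 70.1% of 499 male and 63.8% of 138 female neutrophils, 56.3% of 2428 and 67.7% of 2773 phagocytes, and 23.8% of 4778 and 36.5% of 3411 carcinoma cells. Without thinning the shares were 73.4% of 677 and 66.2% of 207 neutrophils, 94.1% of 2458 and 97.6% of 2805 phagocytes, and 74.9% and 88.7% of carcinoma cells. Median depth ran from 1189 UMIs in female neutrophils to 11416 in female carcinoma cells.

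Eda2r was almost confined to carcinoma cells among the 6 classes. Phagocytes gave 3 Eda2r UMIs in 2458 male cells and 2 in 2805 female cells, 0.112 CPM (0.0232 to 0.328) and 0.0694 CPM (0.00841 to 0.251). Neutrophils, CD8 T, CD4 T and NK cells gave 0 UMIs in both sexes, and the level that 3 counts would give there lay between 2.42 CPM in male CD8 T cells and 10.4 CPM in female neutrophils. Against these limits the male carcinoma level was at least 4.86-fold higher and the female level at least 2.44-fold higher. Eda2r was detected in 18.9% (17.8 to 20.04) of male and 17.9% (16.7 to 19.2) of female carcinoma cells, against 0.122% and 0.0713% of phagocytes.

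Trp53inp1 was lowest in phagocytes in both sexes, at 11.5 CPM (10.3 to 12.9) in male and 14.2 CPM (12.9 to 15.7) in female cells. Neutrophils came next, at 55.7 CPM (41.7 to 72.8) and 73.0 CPM (45.2 to 112). In male libraries carcinoma cells (180.7 CPM) lay above CD8 T cells (142.7 CPM, 122 to 165), NK cells (106.2 CPM, 87.8 to 127) and CD4 T cells (82.3 CPM, 60.2 to 110). In female libraries CD8 T cells (144.5 CPM, 108 to 190), carcinoma cells (120.8 CPM), NK cells (117.3 CPM, 95.1 to 143) and CD4 T cells (113.6 CPM, 87.5 to 145) did not separate within counting error.

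Bax was highest in phagocytes, at 188.7 CPM (183 to 194) in male and 257.8 CPM (252 to 264) in female cells. Lymphocytes lay between, from 146.7 to 164.6 CPM in male and from 150.1 to 170.4 CPM in female cells, with overlapping intervals. Carcinoma cells were at 117.0 and 130.2 CPM. Neutrophils were at 115.5 CPM (94.9 to 139) in male and 205.2 CPM (156 to 265) in female cells, so their place in the order differed between the sexes.

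Ccng1 was highest in CD4 T cells, at 200.3 CPM (165 to 241) in male and 182.8 CPM (149 to 222) in female cells, and lowest in NK cells, at 108.0 CPM (89.4 to 129) and 99.2 CPM (78.9 to 123). In the female libraries CD4 T cells did not separate from carcinoma cells (181.6 CPM). Sesn2 was highest in male neutrophils, at 90.3 CPM (72.2 to 112), above carcinoma cells at 30.0 CPM. In the female libraries carcinoma cells (55.8 CPM) and neutrophils (48.7 CPM, 26.6 to 81.7) overlapped. Phagocytes had 14.4 and 14.1 CPM of Sesn2, and lymphocytes between 6.45 and 13.3 CPM. Zmat3 lay between 10.5 and 28.3 CPM in 5 of the 6 classes, all but neutrophils, which gave 1 UMI in each library. Phlda3 was found at 9 UMIs in male and 22 in female phagocytes and at 0 to 2 UMIs in each other leukocyte class.

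The female excess of Mdm2 recurred in the leukocytes. In phagocytes (2458 male and 2805 female cells) 4 of the 9 genes could be compared, and in 1 of them the female level was 1.5-fold or more above the male, as in 4.47% of 6285 genes. None was that much higher in male cells, as 4.81% of genes were. Mdm2 was 2.11-fold higher in the female phagocytes (2.02 to 2.21), Bax 1.37-fold (1.32 to 1.42), Cdkn1a 1.29-fold (1.27 to 1.31) and Ccng1 1.27-fold (1.21 to 1.33). Most male phagocytes lay in clusters led by Cx3cr1 (1141 cells) and Mucl1 (579 cells) and most female ones in clusters led by Cdh1 (1269 cells) and Atp6v0d2 (711 cells).

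Inside the 6 phagocyte clusters 4 of the genes could be compared in each. Mdm2, Bax and Ccng1 were higher in the female cells of all 6, as 13.1% of 3620 genes were. Mdm2 ratios ran from 1.19-fold in the Atp6v0d2 cluster (184.9 and 220.9 CPM) to 2.35-fold in the cluster led by Ifit2 (138.4 and 324.8 CPM). All 6 of its intervals lay above 1, as for 1.88% of genes. Bax ratios ran from 1.18 to 1.52 with 5 intervals above 1, and Ccng1 had 4. Cdkn1a was higher in 4 of 6, from 1.61-fold in the cluster led by Cd209a (978.9 and 1579 CPM) down to 0.934-fold (0.885 to 0.986) in the Atp6v0d2 cluster (1052 and 983 CPM).

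In neutrophils (677 male and 207 female cells) 5 of the genes could be compared, with 2 at least 1.5-fold higher in female cells, as 9.66% of 1759 genes were, and 1 in male cells, as 5.29% were. Mdm2 was 1.95-fold higher in the female cells (1.52 to 2.49) and Bax 1.78-fold (1.27 to 2.46), while Cdkn1a had a ratio of 1.05 (0.949 to 1.15). Sesn2 ran the other way, with 86 male and 14 female UMIs and a level 1.86-fold higher in the male cells (1.05 to 3.53). Those 100 UMIs are exactly the minimum for comparison. The C1q genes of macrophages were at 846 CPM in male and 1461 CPM in female neutrophils, and their part in these ratios was not tested.

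In CD8 T cells (404 and 120 cells) Cdkn1a was 1.63-fold higher in female cells (1.26 to 2.11) and Mdm2 1.61-fold (1.05 to 2.42), 2 of 5 genes compared against 4.91% of 3139. In NK cells (254 and 224 cells) Cdkn1a was 1.62-fold higher (1.29 to 2.03) and Mdm2 1.52-fold (1.08 to 2.13), 2 of 5 against 6.8% of 3574. In CD4 T cells (206 and 158 cells) Cdkn1a was 1.82-fold higher (1.44 to 2.31), 1 of 5 against 5.69% of 2266, with 11.4% of its female UMIs in 1 cell. Mdm2 there had a ratio of 1.18 (0.821 to 1.69). Ccng1, Trp53inp1 and Bax had intervals including 1 in all 3 lymphocyte classes. None of the genes compared was at least 1.5-fold higher in male cells of these classes, as 6.85% (CD8 T), 5.54% (NK) and 3.4% (CD4 T) of genes were.

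Macrophage RNA in these lymphocytes moved with sex. The summed C1q genes, which macrophages make and lymphocytes are not known for, were at 839 CPM in male and 1206 CPM in female CD8 T cells, 1016 and 1429 CPM in CD4 T cells, and 522 and 1316 CPM in NK cells, against 9954 and 8877 CPM in phagocytes. Phagocytes carried 998.2 and 1289 CPM of Cdkn1a. The part of this RNA in the lymphocyte values of Cdkn1a and Mdm2 was not tested.

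**Figure D3:**
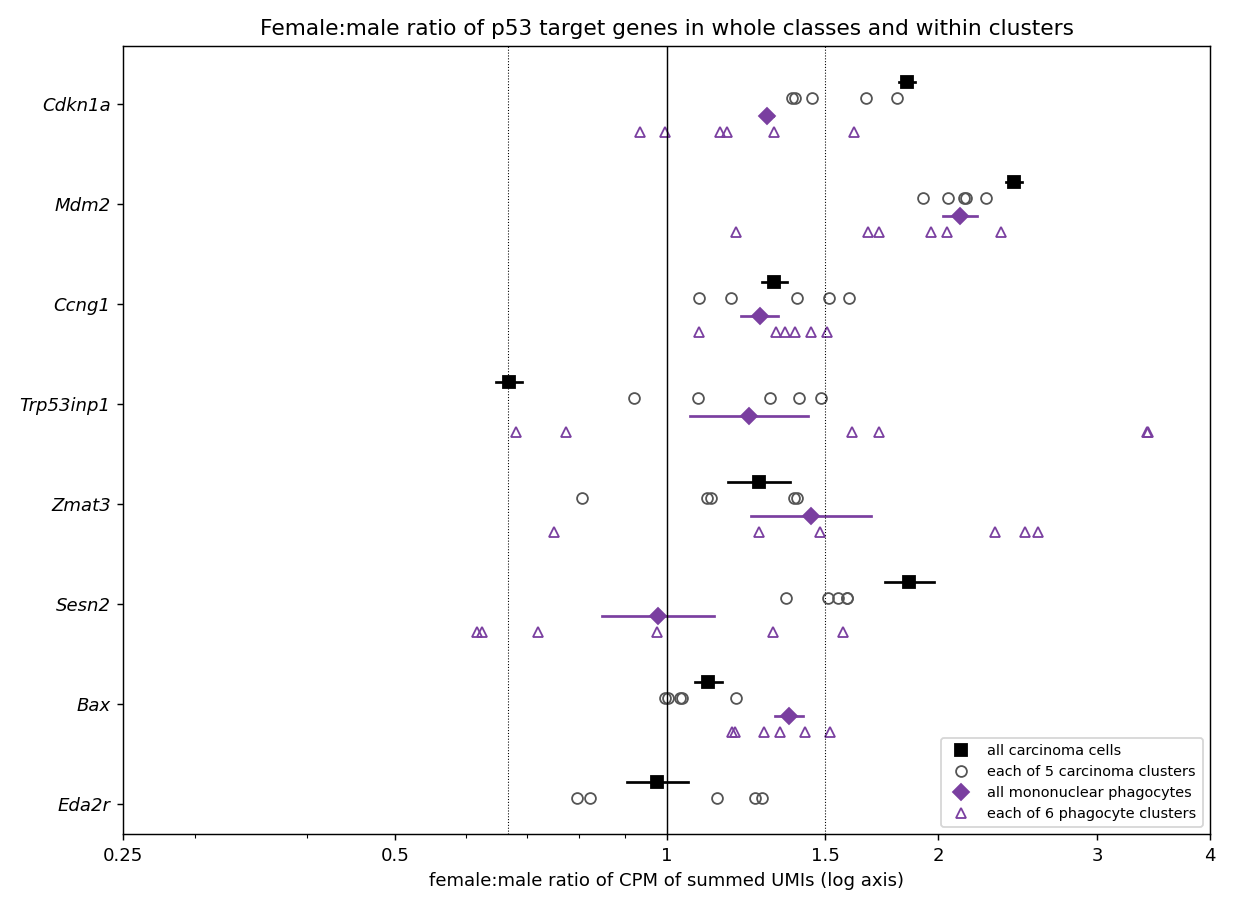
Female:male ratio (log axis) of 8 of the genes in all carcinoma cells (black squares) and all phagocytes (diamonds) with exact 95% intervals, and in each of 5 carcinoma (circles) and 6 phagocyte clusters (triangles); dotted lines mark 1.5-fold, phagocyte values are drawn for genes with 100 UMIs over both libraries, and those of single clusters rest on fewer UMIs for Trp53inp1, Zmat3 and Sesn2 than for the others. Every symbol of Mdm2 lies to the right of 1, with 2.43 in carcinoma cells and 2.11 in phagocytes, while Trp53inp1 lies at 0.669 over all carcinoma cells and to the right of that in each carcinoma cluster.

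Across single carcinoma cells some of the genes rose and fell together. Each cell was reduced to 5000 UMIs, which left 4126 male and 3027 female cells, and 8 of the 9 genes (all but Phlda3) were found in at least 5% of them. Pearson correlations of the logarithm of the counts describe the cells of 1 library, which share a mouse source and a preparation. The median over the 28 pairs of these genes was 0.056 in male and 0.077 in female cells, against 0.0006 and 0.0005 over all 32963140 pairs of 8120 genes. Above the 99th percentile of all pairs, by construction 1% of them, lay 12 of the 28 pairs in male and 15 in female cells. Counts are sparse at this depth, and most of these correlations are too weak to be read one by one.

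The pair of Cdkn1a and Mdm2 was the strongest, at 0.20 in male and 0.29 in female cells. Ccng1 followed with Cdkn1a at 0.15 and 0.19, with Trp53inp1 at 0.11 and 0.19, with Mdm2 at 0.11 and 0.18, and with Bax at 0.13 and 0.16. Trp53inp1 and Eda2r had 0.14 and 0.13. Within carcinoma clusters, from deviations of each cell from its cluster mean, Cdkn1a and Mdm2 still had 0.19 and 0.28. Zmat3 and Sesn2 stayed below 0.12 with every other gene of the group.

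**Figure D4:**
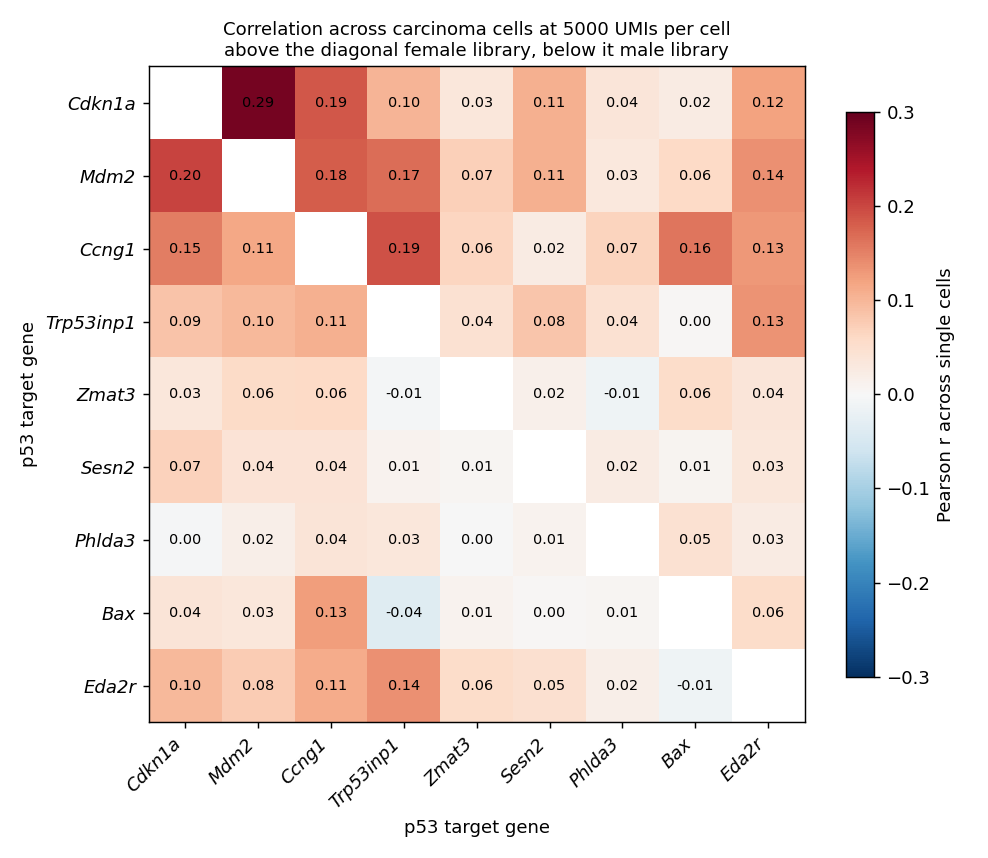
Pearson correlation (colour and printed value) of log counts for each pair of the 9 genes across carcinoma cells at 5000 UMIs per cell, female library above the diagonal and male library below it. Cdkn1a with Mdm2 is the highest pair, at 0.29 and 0.20, and Phlda3, Zmat3 and Sesn2 form pale rows.

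The same pattern can be read as levels. Male cells with at least 1 Cdkn1a UMI (2499 cells) had 262.9 CPM of Mdm2 and those without (1627 cells) 171.7 CPM, 1.53-fold apart (1.44 to 1.63). In female cells the values were 608.5 and 351.6 CPM, 1.73-fold apart (1.62 to 1.85). Over all genes the median ratio of this split was 0.973 in male and 0.971 in female cells. At least 1.2-fold higher in the cells with Cdkn1a were 6.87% and 10.9% of genes. Trp53 was lower in the cells with Cdkn1a, at 103.3 against 124.0 CPM in male and 80.3 against 95.8 CPM in female cells, and so was the summed proliferation list, at 3462 against 3958 CPM and 2874 against 3672 CPM. Cells with an Eda2r UMI (455 male and 315 female) had more Ccng1, at 221.5 against 129.9 CPM in male and 309.2 against 167.7 CPM in female cells, and more Trp53inp1, at 347.3 against 200.2 CPM and 224.1 against 119.6 CPM. Bax was at 114.7 CPM in male cells with Eda2r and 114.5 CPM in those without, a ratio of 1.002 (0.878 to 1.14), and at 154.9 and 125 CPM in female cells, a ratio of 1.24 (1.08 to 1.42). The proliferation list was lower in cells with Eda2r, at 2301 against 3826 CPM in male and 2237 against 3118 CPM in female cells. For the Eda2r split the median ratio over all genes was 0.982 in male and 0.998 in female cells. At least 1.2-fold higher in the cells with Eda2r were 12.8% and 10.6% of genes. These splits were not made within clusters. Eda2r and Trp53inp1 were both highest in the Serpina6 cluster, and the part of the clusters in these gaps was not tested.

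The genes nearest to each member in these correlations, averaged over both libraries, were partly members themselves. Over 8120 genes, the nearest to Mdm2 was Cdkn1a (0.24), followed by Sqstm1, an autophagy receptor gene (0.22), and Klf4 (0.21). The nearest to Cdkn1a were the AP-1 gene Jund (0.26), Ndrg1 (0.25) and the p53 target Btg2 (0.25). Ccng1 had Ephx1, another listed p53 target (0.18), Gas6 (0.18) and Cdkn1a (0.17). Bax had Ccng1 in first place (0.14), then Rps3 and Gm4332 (both 0.09), and Eda2r had Trp53inp1 (0.14), Ccng1 (0.12) and the complement gene C3 (0.12).

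Trp53inp1 and Sesn2 had neighbours outside the group. For Trp53inp1 these were Itm2b (0.28), Enpp2 (0.24) and Nfkbiz (0.22), and Enpp2 is among the leading genes of the Serpina6 cluster. Sesn2 had Sqstm1 (0.12), Ifrd1 (0.10) and Atf4 (0.09), the last the transcription factor of the integrated stress response. Zmat3 had Mdm2, Ccng1 and Gdf15 (all 0.06).

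Against the sum of the 8 genes in each cell, the 10 most alike of 8112 other genes were Sqstm1 and Klf4 (both 0.30), Tob1, Ier5, Jund, Fosb, Zfand5, Ddx5, Srxn1 and Btg2 (0.22). The 8 genes weighed unequally in this sum, which follows Cdkn1a and Mdm2 more than the rest. Cdkn1a had 0.66 and Mdm2 0.62 with it, and the others from 0.15 (Zmat3) to 0.45 (Trp53inp1). The least alike were Lgals1 and Eif5a (both -0.25), Ran, Ybx3, Mtap, Ywhae, Pfn1, Tubb5, Tuba1b and Birc5 (-0.19). The other p53 targets had a median correlation of 0.041 with the sum (31 genes) against -0.008 over all 8112, and Trp53 had -0.09. Single members tracked the stress lists unequally. With the integrated stress response list, Cdkn1a had 0.07 in male and 0.16 in female cells, Mdm2 0.04 and 0.13, and Sesn2 0.08 and 0.14. Trp53inp1 had -0.12 and -0.03 with it, and Ccng1 -0.03 and -0.06. The immediate early and dissociation list gave 0.07 and 0.19 for Mdm2 and 0.09 and 0.17 for Cdkn1a. It gave 0.11 and 0.06 for Trp53inp1 and -0.04 in both libraries for Bax. With the proliferation list, Trp53inp1 had -0.22 and -0.03, Cdkn1a -0.13 and -0.17, and Bax 0.06 and -0.01.

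Counted per cell at 5000 UMIs, the median carcinoma cell held UMIs of 3 of the 9 genes in both libraries. The female cells were shifted upward, with 18.2% holding 5 or more of the genes against 9.84% of male cells, and 34 of 3027 holding none against 165 of 4126. The median number of UMIs summed over the 9 genes was 4 in male and 7 in female cells. The highest cell had 48 among male and 103 among female cells, and no cell in either held all 9 genes. Of the 9, Cdkn1a (298.9 CPM in male and 552.2 CPM in female cells) and Mdm2 (228.3 and 554.4 CPM) were the most abundant in both libraries. Their part in this shift was not tested, and no share for other genes was taken.

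**Figure D5:**
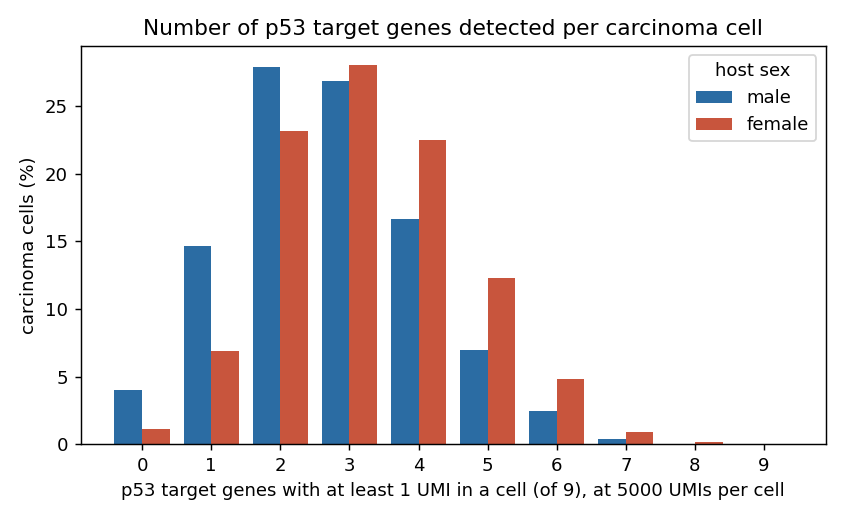
Share of carcinoma cells (%) by the number of the 9 genes with at least 1 UMI, at 5000 UMIs per cell, in the male (blue, 4126 cells) and female (red, 3027 cells) library. The female bars exceed the male bars from 3 genes upward, and 18.2% of female against 9.84% of male cells hold 5 or more.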

How the data were processed

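Per the labels' protocols, tumours were digested with collagenases, DNase and dispase, live CD45-negative and CD45-positive cells were sorted, and BD Rhapsody, a microwell system, served to tag RNA with UMIs. CASAVA 1.8, UMI-tools, Seurat and the build mm10 are named in the submitters' processing notes. Which aligner was used is not stated there. The authors deposited whole-number UMI counts per gene and cell, not normalized.

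Cells needed 500 UMIs, 250 genes and no more than 25% of UMIs from mitochondrial genes. Scrublet at an expected rate of 6% marked 2 of 19375 cells, far below that rate. Its calls cannot be taken as complete, so doublets may remain. Whether doublets were removed before deposit is not known. The barcode files hold running numbers, so barcodes shared between libraries were not counted. Cells of all libraries were clustered together (scanpy 1.11.5, leidenalg 0.10.2) on 2000 variable genes without the 9 genes, other p53 targets and sex-linked genes, with 30 principal components, 15 neighbours and resolution 1.0, which gave 27 clusters. Clusters were named from marker lists, and the scoring was set after seeing the data. A class needed 100 cells in both libraries.

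CPM was taken from UMIs summed per library and class, with exact Poisson intervals. Ratios have exact conditional binomial and shares exact Clopper-Pearson intervals (scipy 1.17.1, Python 3.11.15), which treat UMIs as independent. In ratios, 3 counts over the class stood in for 0. Eligible genes had 100 or more UMIs over both libraries and a higher level of 20 CPM or more. Correlations used genes found in at least 5% of cells.

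The members and lists were chosen with earlier results of these data known. All 9 genes were named. Of other targets and regulators, the 3 with the largest, the 3 with the smallest ratio and the 3 most abundant were named, as were the 10 genes most and least like the members' sum and the 3 nearest each member. The stricter filter and doublet alternatives kept the cluster labels of the full data.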

Additional observations from a re-analysis of the deposited data

Results flagged for a closer look

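Sesn2 differed in direction between carcinoma cells and neutrophils. It was 1.86-fold higher in the female library in carcinoma cells (30.0 CPM male, 55.8 CPM female) and 1.86-fold higher in the male library in neutrophils (90.3 CPM male, 48.7 CPM female). The log2 female:male ratio was thus lower by 1.79 in neutrophils (a difference of -1.79). The difference itself was not tested, since each value comes from 1 library. The neutrophil value rests on 86 male and 14 female UMIs, with 14.3% of the female UMIs in 1 cell. It was chosen because the sexes moved in opposite directions in these classes.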

How the results depend on the processing

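In carcinoma cells the count of genes 1.5-fold or more above the male level in female cells was 3 under every alternative run, and of 90 values of single genes 81 moved by less than their counting interval. With the mean of cells' CPM, 1 gene was that much higher in male cells, where the sums gave 0. The log2 ratio of Trp53inp1 was 0.29 with equal weight to 5 clusters, an alternative added after seeing the data, against -0.58. The phagocyte median log2 ratio of 0.41 was 0.29 with finer clustering and 0.47 with the mean of cells' CPM, and the phagocyte count of 1 female gene was 2 with no filter on low counts. The neutrophil count of 1 male gene was 0 without the 5% of cells with the highest doublet scores and 0 with the 9 genes used in clustering. With the mean of cells' CPM the CD4 T cell count of 1 female gene was 2, and the NK cell count of 2 was 1, as it was with the 9 genes used in clustering. Genes highest in carcinoma cells numbered 4 with the stricter filter and 5 with coarser clustering, against 2, and in both settings fewer leukocyte classes were left to compare. The median pair correlation in male cells, 0.056, was 0.035 at 2500 UMIs, 0.079 without thinning and 0.032 in the 159 cells with no proliferation UMI. In female cells, 0.077, it was 0.13 without thinning and 0.15 in the 132 such cells. For the values not named, the cause of a change was not tested. Neutrophils and CD8 T cells under the stricter filter, and CD8 and CD4 T cells under coarser clustering, had too few cells and were not run. Median-ratio scaling shifted all genes by at most 0.07 on the log2 scale. No paired analysis was possible because each group holds 1 library. Phlda3 was left out for its level in carcinoma cells and in phagocytes (0.337 CPM in male and 0.764 CPM in female phagocytes). In the other leukocyte classes Phlda3 gave too few UMIs to tell level from depth. Sesn2 was below the level needed for comparison in every lymphocyte class (6.45 to 13.3 CPM), as was Zmat3 in CD8 T cells (11.3 CPM male, 11.1 CPM female). Zmat3 reached that level in CD4 T cells (23.3 CPM male, 24.8 CPM female) and female NK cells (26.6 CPM), but had too few UMIs there.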

Other observations

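Classes too small for the comparisons above gave the 9 genes at low counts. Mdm2 was at 65.6 CPM in 156 male and 162.5 CPM in 89 female mature dendritic cells (61 and 101 UMIs), a female:male ratio of 2.48 (1.78 to 3.46). In regulatory T cells (253 male and 73 female) Mdm2 was at 114.4 and 195.4 CPM, a ratio of 1.71 (1.18 to 2.44). In fibroblasts (33 male and 68 female) it was at 84.4 and 216.7 CPM from 23 and 134 UMIs, a ratio of 2.57 (1.64 to 4.19), while Bax (0.563, 0.356 to 0.896) and Zmat3 (0.33049, 0.123 to 0.855) were lower in the female fibroblasts and Cdkn1a had a ratio of 0.955 (0.672 to 1.37). Type 1 dendritic cells (210 male and 17 female) had 62.1 and 95.001 CPM of Mdm2, with an interval of the ratio that included 1 (0.917 to 2.43), and 364.8 and 755.5 CPM of Cdkn1a, with 24.0% of the female Cdkn1a UMIs in 1 cell. The C1q genes of macrophages were also higher in the female library, at 900.4 and 2254 CPM in mature dendritic cells, 612 and 1333 CPM in regulatory T cells and 1431 and 3443 CPM in type 1 dendritic cells, and their part in these ratios was not tested.

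The shallow CD45-negative cluster (596 male and 356 female cells) gave 198.4 and 306.8 CPM of Mdm2, a ratio of 1.55 (1.26 to 1.90), and 139.4 and 71.8 CPM of Trp53inp1.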
